A study of Arabidopsis thaliana with 12 samples.

Results

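NdhN, CRR41 and CRR21 are nuclear genes of the chloroplast NADH dehydrogenase-like (NDH) complex, a subunit gene and genes of factors that serve it. They were taken by gene name from the features that the array's annotation assigns to a single gene, 3 of the 691 such features among 3438 genes or features tested. All 3 were found, as AT5G58260 (NdhN), AT1G51100 (CRR41) and AT5G55740 (CRR21), and no sample of any of them was at 0 or at the floor of 0.0277 set under low normalized values. The choice of these genes was made with results of the pam46 and WT comparison known, so their differences between the groups are a description and carry no test.

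The NDH complex sits in the thylakoid membrane, takes electrons from reduced ferredoxin and passes them to plastoquinone. It thereby runs cyclic electron flow around photosystem I and takes part in chlororespiration, the feeding of electrons into the plastoquinone pool in the dark. Its subunits are encoded partly in the plastid genome and partly in the nucleus, and its assembly and the editing and maturation of the plastid ndh transcripts depend on many nuclear factors. NdhN is a nuclear-encoded subunit of subcomplex A, the arm that faces the stroma. CRR41 (CHLORORESPIRATORY REDUCTION 41) is a stromal protein needed to assemble that arm. CRR21 is a pentatricopeptide repeat protein, a kind of RNA-binding protein, and is needed for RNA editing of an ndhD transcript, which encodes a membrane subunit of the complex.

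The study compared 6 samples of pam46, an Arabidopsis thaliana mutant whose affected protein the labels call unknown and whose photosynthesis is altered, with 6 samples of wild type (WT). Both are of ecotype Columbia 0, and each group holds the sample numbers 1 to 6. Total RNA was measured on an array, with values deposited as linear intensities between 0 and 100. The sources used here name neither the mutated gene nor the tissue, age or growth conditions, so no targeted gene could serve as a check of the labels. Whether samples came from separate plants is not stated either, and errors may measure technical spread.

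Summed intensities per sample were 3297 to 3561 in pam46 and 3290 to 3644 in WT. Median intensities were 0.199 to 0.226 in pam46 and 0.296 to 0.341 in WT, and they did not overlap. Because of this gap a gene's difference depends on the scaling, and values are therefore given both as deposited and after quantile normalization, which gives all samples the same distribution. On the deposited scale the median log2 difference of all features, pam46 minus WT, was -0.36, and on the normalized scale it was 0. Samples with consecutive numbers (1 and 2, 3 and 4, 5 and 6) deviated together within a group, so 6 samples carry less information than 6 independent ones. Errors that treat them as independent can be too small, and the values with each such pair averaged are given beside them.

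NdhN was lower in every pam46 sample than in any WT sample. Its deposited intensity was 0.244, 0.227, 0.201, 0.225, 0.253 and 0.187 in pam46 samples 1 to 6, and 0.369, 0.4, 0.382, 0.448, 0.4 and 0.396 in WT samples 1 to 6. The highest pam46 sample, number 5, stayed well below the lowest WT sample, number 1, and the values of each group lay close together. The mean was 0.223 ± 0.0249 in pam46 and 0.399 ± 0.0268 in WT (SD, n = 6 each), a ratio of 0.558. After normalization the gap narrowed to 0.275 ± 0.0292 in pam46 and 0.342 ± 0.039 in WT. The groups still did not overlap there, but only just, with the highest pam46 sample at 0.302 and the lowest WT sample at 0.305. The log2 difference was -0.31 ± 0.10 (SE) on the normalized scale, and -0.85 ± 0.08 without scaling. Of the 3438 features, 1145 had a lower normalized difference than NdhN. In bulk RNA such as this, a lower share of cells that express a gene and less of its RNA per cell cannot be told apart.

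CRR41, the assembly factor, was higher in every pam46 sample than in any WT sample. Its deposited intensity was 0.226, 0.347, 0.244, 0.33, 0.432 and 0.271 in pam46 samples 1 to 6, and 0.187, 0.166, 0.209, 0.199, 0.199 and 0.176 in WT samples 1 to 6. The WT samples were nearly level, while pam46 samples were spread, with number 5 highest and number 1 closest to WT. The mean was 0.308 ± 0.0768 in pam46 and 0.189 ± 0.0161 in WT (SD, n = 6 each), a ratio of 1.63. On the normalized scale it was 0.368 ± 0.0813 in pam46 and 0.155 ± 0.0244 in WT. The log2 difference there was 1.23 ± 0.16 (SE), or 2.35-fold, and 281 of the 3438 features had a higher one. On the values as deposited it was 0.67 ± 0.15.

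CRR21, the editing factor, was also higher in pam46 on average, but its groups overlapped. Its deposited intensity was 0.422, 0.475, 0.595, 0.669, 0.54 and 0.424 in pam46 samples 1 to 6, and 0.253, 0.256, 0.512, 0.52, 0.399 and 0.414 in WT samples 1 to 6. WT samples 3 and 4 lay above pam46 samples 1, 2 and 6, and WT samples 1 and 2 were far below all others. The mean was 0.521 ± 0.099 in pam46 and 0.392 ± 0.118 in WT (SD, n = 6 each), a ratio of 1.33. After normalization it was 0.586 ± 0.116 in pam46 and 0.35 ± 0.123 in WT, with pam46 from 0.465 to 0.745 and WT from 0.221 to 0.499. The log2 difference was 0.80 ± 0.23 (SE) on the normalized scale, 0.45 ± 0.21 without scaling, and 1.01 ± 0.23 with equal medians.

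Thus 2 of the 3 genes, NdhN and CRR41, had groups that did not overlap, both as deposited and after normalization. Groups did not overlap in 23.2% of all features after normalization, with pam46 below WT, as for NdhN, in 12.5% and above WT, as for CRR41, in 10.7%. As deposited the groups were apart in 29.0% of all features, with pam46 below WT in 23.6% and above WT in 5.38%. With each sample scaled to the same median CRR21 was separated as well, with pam46 from 0.495 to 0.883 and WT from 0.212 to 0.464, and on that scale pam46 was above WT in 15.9% of all features. The choice of the genes used this contrast, so nothing is read from these counts.

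**Figure D1:**
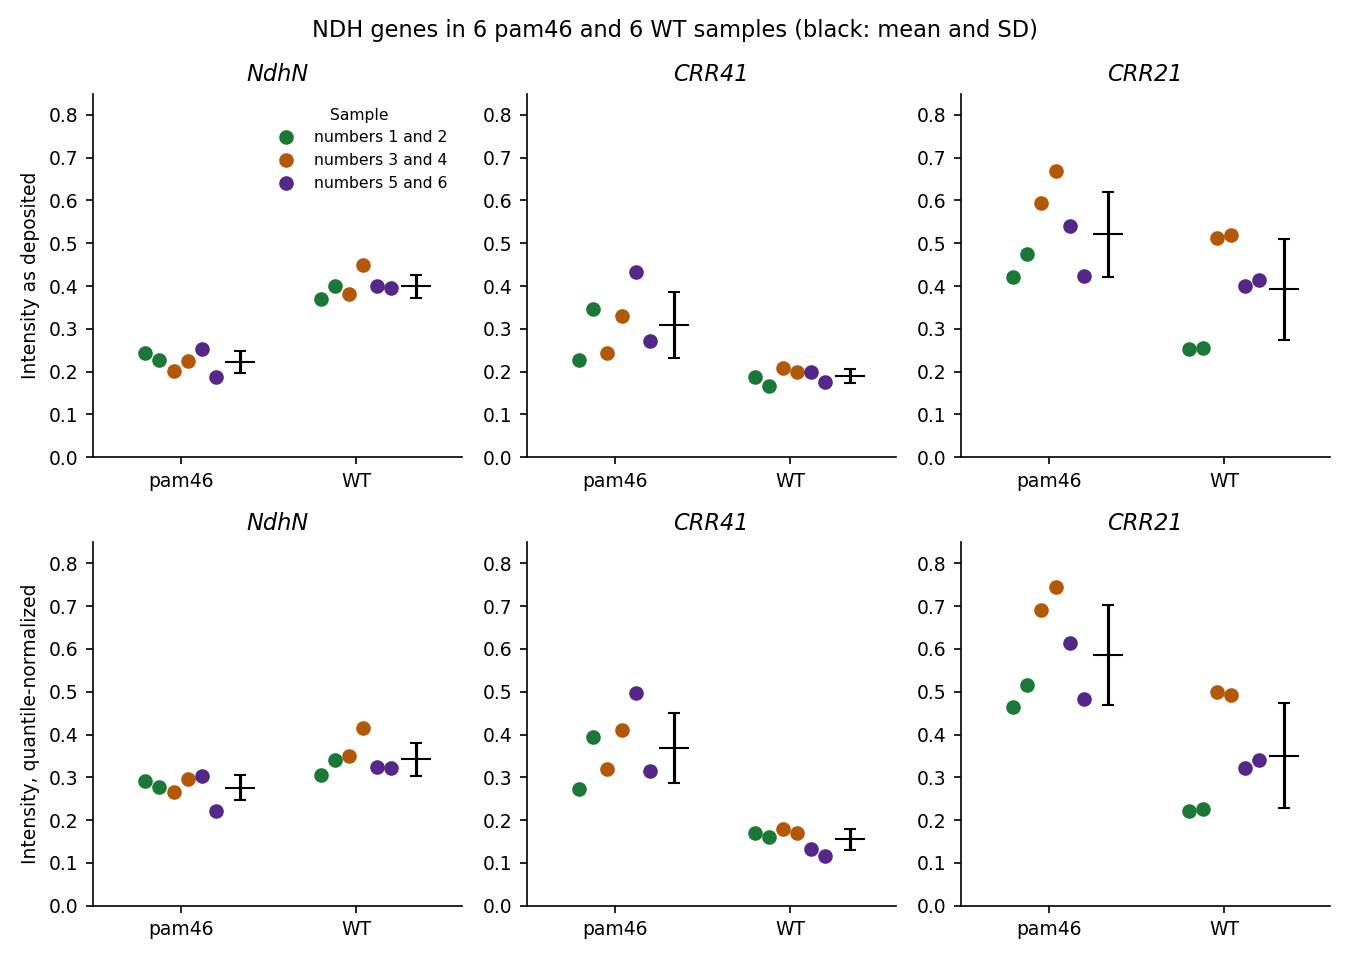
Intensity of NdhN, CRR41 and CRR21 in each pam46 sample (left in each panel) and WT sample (right), as deposited (upper row) and quantile-normalized (lower row). Points are samples, coloured by pairs of consecutive sample numbers, and black marks show the mean and SD of 6 samples. NdhN is lower in pam46 with a gap that narrows after normalization, CRR41 is higher in pam46, and CRR21 overlaps, with samples 3 and 4 high in both groups.

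The position of each gene among the 3439 features of its own array does not depend on any scaling of that array. Quantile normalization sets values by this rank, so overlap or separation in rank repeats that of the normalized values and adds no separate evidence. NdhN stood above 44.2% to 54.4% of features in pam46 samples (median 52.4%) and above 54.8% to 64.9% in WT samples (median 57.7%). The groups lay next to each other in rank without overlap. CRR41 stood above 51.1% to 70.4% of features in pam46 (median 59.9%) and 26.2% to 37.2% in WT (median 34.7%), which makes it the gene of the 3 with the widest shift in rank. CRR21 stood above 68.5% to 80.5% in pam46 (median 73.8%) and 44% to 70.5% in WT (median 57.6%), and its ranks overlapped as its intensities did.

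Sample numbers are shared between the groups, and the same number in pam46 and WT deviated together across features. Set against the WT sample of the same number, NdhN was lower in 6 of 6 pam46 samples, with ratios of deposited intensity from 0.472 (number 6) to 0.66 (number 1). On the normalized scale its log2 differences were smaller, from -0.53 (number 6) to -0.06 (number 1), with number 5 at -0.10, so numbers 1 and 5 showed almost no difference there. CRR41 was higher in 6 of 6, with deposited ratios from 1.17 to 2.18, lowest in number 3 and highest in number 5, and with normalized log2 differences from 0.69 to 1.90. CRR21 was higher in 6 of 6 as well, with deposited ratios from 1.02 in number 6 to 1.86 in number 2, and with normalized log2 differences from 0.47 to 1.19. The overlap of CRR21 between the groups therefore lay between samples of different numbers, not between samples of the same number. For NdhN and CRR41, 6 of 6 follows from groups that do not overlap. The share of all features with 6 of 6 was not counted.

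**Figure D2:**
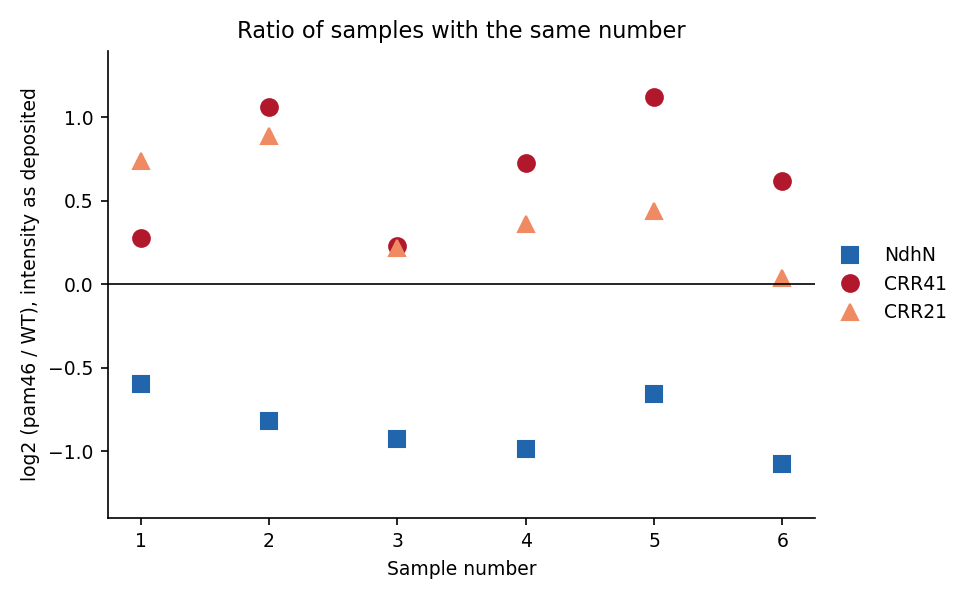
log2 ratio of deposited intensity, pam46 over the WT sample with the same number, for sample numbers 1 to 6 (horizontal axis). NdhN lies below 0 in all 6, CRR41 lies between 0.23 and 1.12, and CRR21 lies between 0.04 and 0.89.

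A factor that multiplies all values of a sample drops out of the difference of 2 log2 ratios from the same samples. Quantile normalization is not such a factor and changes these differences, so the values here are for deposited intensities. The log2 ratio of CRR41 exceeded that of NdhN by 1.52 ± 0.41 (SD over 6 sample numbers), and by at least 0.87 in every number. That of CRR21 exceeded that of NdhN by 1.29 ± 0.23, and by at least 1.10 in every number. CRR41 and CRR21 differed from each other by 0.23 ± 0.42, with numbers from -0.46 to 0.69, so their order changed with the sample number. NdhN thus lay below CRR41 and CRR21 in all 6 numbers, whereas CRR41 and CRR21 did not lie apart from each other beyond their spread. For NdhN and CRR41 this order follows from groups that do not overlap, whichever samples are paired. These values describe genes that were chosen with this contrast known.

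CRR21 varied with the pairs of consecutive sample numbers more than the other genes did. Its WT samples fell into tight pairs, with mean deposited intensities of 0.254 in numbers 1 and 2, 0.516 in numbers 3 and 4, and 0.407 in numbers 5 and 6. The same pairs had means of 0.448, 0.632 and 0.482 in pam46, so numbers 3 and 4 were highest and numbers 1 and 2 lowest in both groups. Of the spread of CRR21 within a group (sum of squares of log2 normalized values), 80.6% in pam46 and 99.7% in WT lay between pairs, against a median over all features of 67.9% in pam46 and 82.1% in WT. For CRR41 this share was 14.6% in pam46 and 92.2% in WT, and for NdhN 15.5% in pam46 and 64% in WT. In pam46 most of the spread of NdhN and CRR41 was therefore between the samples of a pair.

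Over these pairs the ratio of pam46 to WT means of deposited NdhN intensity was 0.611, 0.513 and 0.552 for numbers 1 and 2, 3 and 4, and 5 and 6. On the normalized scale the mean log2 differences of NdhN over these pairs were -0.18, -0.45 and -0.32, so the pairs were less alike there than as deposited. For CRR41 the deposited ratio was 1.62, 1.41 and 1.88, and for CRR21 it was 1.76, 1.22 and 1.19, with the first pair apart from the others. With pairs averaged, 3 against 3, the normalized log2 differences stay the same by arithmetic, and only their errors can change. The errors grew most for CRR21: -0.31 ± 0.12 for NdhN, 1.23 ± 0.17 for CRR41 and 0.80 ± 0.34 for CRR21 (SE). Without numbers 1 and 2 in both groups the log2 difference of CRR21 was 0.63, and without numbers 3 and 4 it was 0.93.

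**Figure D3:**
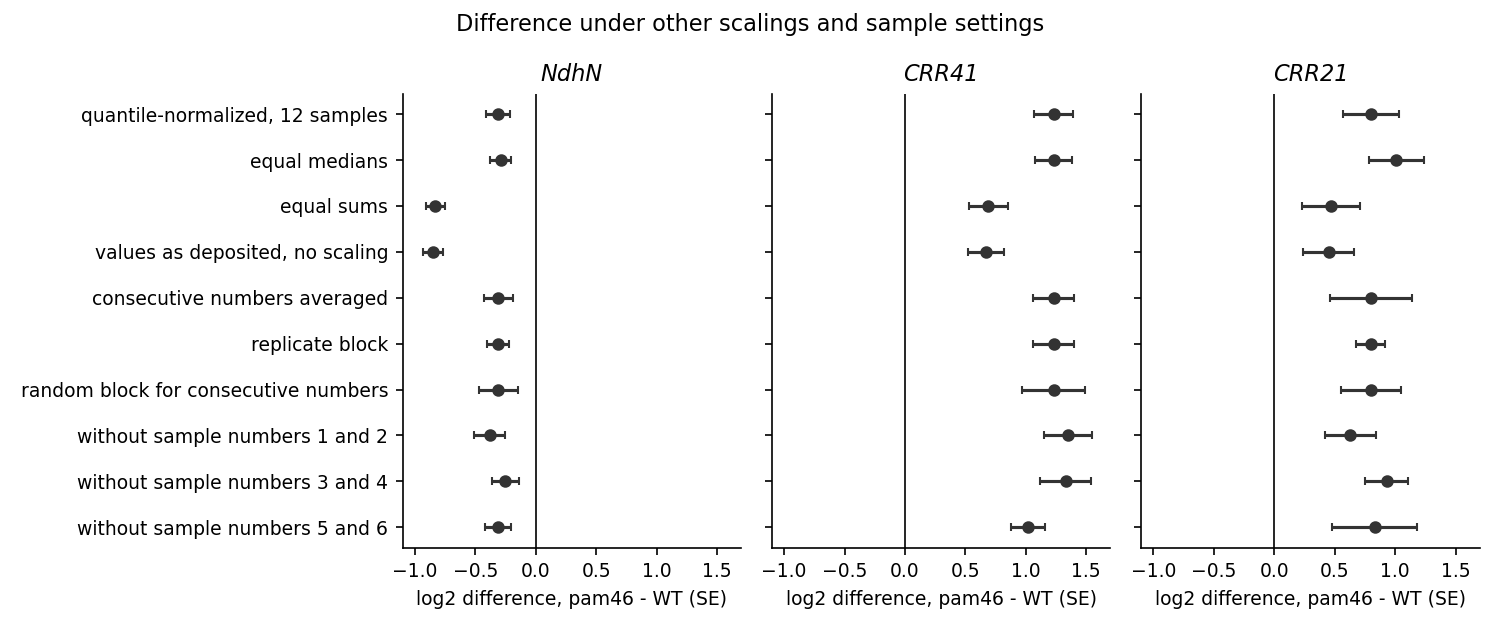
log2 difference, pam46 minus WT, with its SE (horizontal bars) for each gene under 10 settings of scaling and of samples. NdhN lies below 0 and CRR41 and CRR21 above 0 in each, and with equal sums or no scaling all 3 genes lie lower than after quantile normalization, NdhN at -0.83 and -0.85. The averaged and blocked settings share the difference of the quantile-normalized fit by construction and differ from it only in SE.

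Deviations from the group mean over the 12 samples were compared between genes as a description, since they share arrays and sample numbers. Pearson's r was 0.56 between NdhN and CRR21, 0.43 between NdhN and CRR41 and 0.27 between CRR41 and CRR21. Among 594 other genes that have their own feature and values above the floor in at least 10 samples, the deviations most like those of CRR21 were found for AT5G59250 (r = 0.91), AT5G65250 (0.909) and iqd32 (AT1G19870, 0.905). Those most like NdhN were AT5G62360 (0.76), AT1G76450 (0.758) and AT1G07850 (0.743). Those most like CRR41 were AT1G79220 (0.788), AT5G44520 (0.777) and AT1G63610 (0.759). On the values as deposited the same 9 values of r lay between 0.543 and 0.912. Each is among the highest picked from 594 over 12 samples, and how high r would run among unrelated genes was not tested. No shared regulation is read from them. The gene most like CRR21 thus followed it more closely than any gene followed NdhN or CRR41, and CRR21 is also the gene with most of its spread between pairs of numbers.

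Other genes of the complex and of related pathways were taken from 5 lists with 108 entries. Of these, 11 could be matched by locus to a feature of their own here, including NdhN, CRR41 and CRR21. The other 8 were tested in a linear model fitted across all 3438 features with limma, two-sided, with Benjamini-Hochberg adjustment over all features and a threshold of 0.05. Of these 8, 1 rose, 3 fell and 4 did not pass, where 41.1% of all features passed (19.5% higher and 21.6% lower). The median log2 difference of the 8 was 0.12, against 0 for all features. With consecutive numbers averaged, limma called 0 of the 8, where 17.0% of all features were called. At an unadjusted p under 0.05 that fit had 3 of the 8 and 34.6% of all features. With 12 samples, the 4 of 8 that passed were thus near the share of all features.

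NdhS, a subunit of the complex that binds ferredoxin, was the other listed subunit gene with a feature of its own, and it did not pass the test. Its deposited intensity was 6.59, 7.11, 5.37, 5.32, 4.49 and 4.9 in pam46 samples 1 to 6, and 6.85, 6.2, 5.35, 5.34, 5.05 and 2.52 in WT samples 1 to 6. The groups overlapped, and WT sample 6 was far below the other WT samples. The normalized log2 difference was 0.07 ± 0.22 (SE, limma adjusted p = 0.839), and -0.13 without WT sample 6. It passed as higher in 1 of 28 alternatives, with equal medians (0.72, limma adjusted p = 0.0324). Whether NdhS and NdhN differ in their response was not tested.

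Cpn60beta4 encodes a chaperonin subunit that folds the NDH subunit NdhH. Its deposited intensity ran from 0.0134 to 0.155 in pam46 (median 0.113) and from 0 to 0.152 in WT (median 0.0705), and 1 sample of each group was at the floor. The log2 difference was 1.23 ± 0.52 (SE, limma adjusted p = 0.0782, and 0.0118 with the sample number as a block). It did not pass with averaging (limma adjusted p = 0.265), nor with the averages blocked by number (0.0577). Without pam46 sample 2, which stood at the floor, it was 1.62 and passed (limma adjusted p = 0.00815), as it did in 5 of 28 alternatives in all.

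Among the editing factors, OTP85, a pentatricopeptide repeat protein that like CRR21 is needed for editing of ndhD, rose by 0.81 ± 0.17 on the log2 scale (SE, limma adjusted p = 0.00312). Its deposited intensity was 0.175, 0.259, 0.306, 0.255, 0.163 and 0.216 in pam46 samples 1 to 6, and 0.187, 0.188, 0.162, 0.207, 0.237 and 0.18 in WT samples 1 to 6. The groups overlapped as deposited and were separated after normalization, and the call ended without scaling (0.22, limma adjusted p = 0.287), with equal sums (0.24, 0.266) and with averaging (limma adjusted p = 0.0561, and 0.0627 with the replicate block added). AT3G22690, which encodes YS1, a factor for editing of a plastid RNA polymerase transcript, was at 0.18 ± 0.32 (limma adjusted p = 0.683), and its sign turned on the values as deposited (-0.47). The normalized log2 differences of the ndhD editing factors CRR21 and OTP85 stood side by side at 0.80 and 0.81, while without scaling they were 0.45 and 0.22.

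NTRC, the plastid NADPH-dependent thioredoxin reductase, which has been linked to the regulation of NDH-dependent cyclic flow, fell by 0.52 ± 0.16 on the log2 scale (SE, limma adjusted p = 0.0222, and 0.178 with averaging). Its deposited intensity ran from 0.194 to 0.318 in pam46 (median 0.275) and from 0.384 to 0.757 in WT (median 0.487). The call also ended with equal medians (-0.42, limma adjusted p = 0.0619), with a random block for consecutive numbers (0.0743), with the averages blocked by number (0.107) and without numbers 5 and 6 (0.0819). The groups did not overlap as deposited and overlapped after normalization.

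The list for mitochondrial complex I, the respiratory relative of NDH, had 40 entries, of which only 3 were measured with a feature of their own. Of these 3, 2 fell and 1 did not pass, where 21.6% of all features were called lower. With consecutive numbers averaged 0 of the 3 were called, where 17.0% of all features were. So few genes do not describe the complex. GLDH, the enzyme of the last step of ascorbate synthesis that is also needed to assemble complex I, fell by 0.73 ± 0.16 on the log2 scale (SE, limma adjusted p = 0.00375, and 0.0762 with averaging). Its deposited intensity ran from 0.23 to 0.434 in pam46 (median 0.38) and from 0.61 to 0.982 in WT (median 0.737), with no overlap. AT4G02580, the gene of a matrix arm subunit, was listed at 0 in all 6 pam46 samples and at 0.077 to 0.265 in WT (median 0.0935). It was called lower (limma adjusted p = 0.0103, and 0.139 with averaging), and the size of its difference depends on the floor, with no call when the floor was at the 10th percentile (limma adjusted p = 0.145) or the 20th (0.235). The call also ended without numbers 3 and 4 (limma adjusted p = 0.0644) and with the averages blocked by number (0.13). AT5G47890, another subunit gene, was at 0.35 ± 0.19 (limma adjusted p = 0.167), at -0.30 on the values as deposited, and at 0.61 with a call without numbers 1 and 2 (limma adjusted p = 0.0414).

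**Figure D4:**
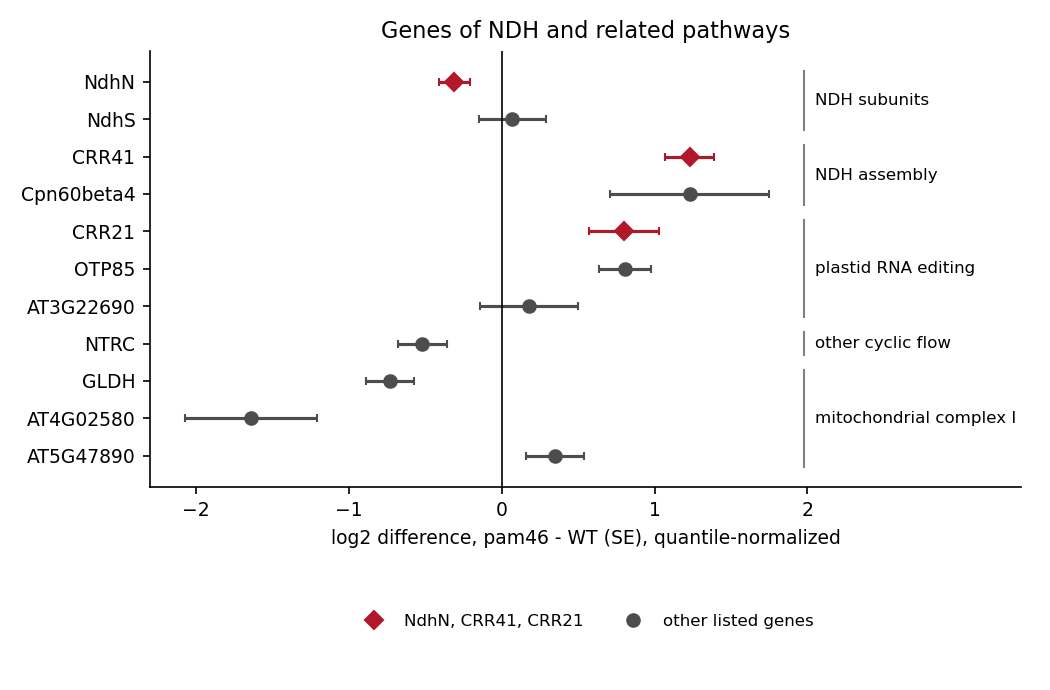
log2 difference, pam46 minus WT, of quantile-normalized intensity for NdhN, CRR41 and CRR21 (diamonds) and the 8 other listed genes (circles), grouped by list from top to bottom, with bars showing SE. NdhN lies at -0.31, NdhS at 0.07 and the editing factor gene AT3G22690 at 0.18. CRR41, Cpn60beta4 (which did not pass the test), CRR21 and OTP85 lie between 0.80 and 1.23. AT4G02580 is drawn with its pam46 samples set to the floor.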

How the data were processed

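The deposited table holds an intensity for 3439 features in 12 samples, linear and without stated units. Which background correction and normalization lie behind the deposited intensities is not stated in the labels. GEO's platform annotation names 1 gene for 692 features, and 690 of these found a match among RefSeq genes (assembly TAIR10.1, names only), at 689 loci; features naming several genes were left unnamed, and the brighter feature of a locus with several was kept. Sums differed by up to 1.11 times and medians by up to 1.71 times, above the 5% limit set for leaving values unscaled, so all samples were quantile-normalized. A floor was then put under low values at the 5th percentile of the positive ones (0.0277) before taking log2. The linear model, 6 samples against 6, came from limma 3.58.1 (functions lmFit and eBayes, R 4.3.3). It was run on simulated data with independent samples, which cannot show its errors where consecutive numbers deviate together. Precision is limited by the number of arrays, which give no read depth.

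Deviations from the group mean served to check the sample numbers. The same number in pam46 and WT correlated at 0.24 to 0.57 over 6 pairs, all above the limit of 0.1 set for using the pairing. Different numbers in pam46 and WT were not compared, so the check cannot show that the number itself pairs the samples. The pairing used here rests on the labels' numbers. Consecutive numbers within a group correlated at 0.26 to 0.67. The fit with the number as a block and the fit with consecutive numbers averaged are alternatives, beside other scalings, floors, a filter on dim features, array weights, another prior and samples left out.

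NdhN, CRR41, CRR21 and the lists were chosen with earlier results of these data known. Named genes were these 3, every listed gene matched by locus to a feature of its own, and for each of the 3 the 3 genes with the most similar deviations. AT2G33430 of the editing list had no entry in the name table, so it could not be matched by locus and is not counted among the listed genes. The annotation names DAL1 for a feature that found no locus, and the sources used here do not tie that name to AT2G33430. That feature was fitted with all others and did not pass (log2 difference 0.50 ± 0.23, SE, limma adjusted p = 0.101, and 0.333 with averaging). No sequence is shown, and no coordinates, since no build is stated for the array.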

Additional observations from a re-analysis of the deposited data

Results flagged for a closer look

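A sample was marked when it stood apart from the other 5 of its group by more than Dixon's critical value for 6 samples allows (the gap to its neighbour as a share of the range). This was done for the 11 listed genes, NdhN, CRR41 and CRR21 among them, in 21 groups with any spread, and 2 were marked, where chance marks about 1 in 20. No sample of NdhN, CRR41 or CRR21 was marked. For NdhS, WT sample 6 stood at a log2 normalized intensity of 1.34, while the other WT samples were at 2.44 to 2.66. For GLDH, pam46 sample 5 was at -1.85 while the other pam46 samples were at -1.28 to -1.05.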

How the results depend on the processing

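Across 28 alternatives NdhN stayed below 0 and CRR41 and CRR21 stayed above 0, but most of these could not turn a sign. Blocks, averaging and the other prior cannot change a difference in this balanced design, and the floors and the dim filter left these genes unchanged. For NdhN and CRR41, whose normalized groups do not overlap, leaving samples out cannot turn the sign either. On the values as deposited the log2 difference moved to -0.85 for NdhN and 0.67 for CRR41, and with equal sums to -0.83 and 0.69, by more than the spread between samples. CRR21 ran from 0.45 to 1.01 over all alternatives. With 1 sample left out NdhN ran from -0.35 to -0.25, CRR41 from 1.14 to 1.32 and CRR21 from 0.68 to 0.91. The count of called features, 1413 (669 higher, 744 lower), was 1658 with the replicate block on 12 samples (814 higher, 844 lower), 586 with consecutive numbers averaged, 693 with these averages and the replicate block, 919 with a random block for consecutive numbers (correlation 0.614), and 1315 to 1390 with 1 sample left out. The fits on averages have fewer samples, and the cause was not tested otherwise. The split moved with the scaling: without scaling 373 were higher and 1301 lower, equal sums gave 382 higher and 1274 lower, and equal medians gave 899 higher and 642 lower. Of the 8 other listed genes 4 were called, 0 with averaging, 1 with averaging and the replicate block, and 4 to 5 with 1 sample left out. The replicate block on 12 samples changed 1 call among them, that of Cpn60beta4 (1.23, limma adjusted p = 0.0118, and 0.0577 with averaging added). Signs turned in genes without a call: AT3G22690 was at -0.47 as deposited, -0.45 with equal sums and -0.04 without WT sample 1 (-0.04 to 0.33 with 1 sample left out), AT5G47890 at -0.30 as deposited and -0.28 with equal sums, and NdhS at -0.13 without WT sample 6 (-0.13 to 0.14 with 1 sample left out) and -0.03 without numbers 5 and 6, and the cause was not tested. Array background is unknown, which limits dim features such as Cpn60beta4 and AT4G02580.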
